A study of Mus musculus with 12 samples.

Results

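The genes described here encode the proteins of the cytosolic ribosome. They were chosen by symbol, as the genes of the deposited matrices whose mouse symbol is Rps or Rpl followed by a number (with an optional a, x or l ending), Rplp0, Rplp1, Rplp2 or Rpsa. This gave 82 of 33696 genes, of which 51 encode large-subunit and 31 small-subunit proteins. The rule that chose them also named 3 comparisons in which they had been seen to stand out: naive against effector T cells, the colours of the sorted cells, and Rps19 after radiation. Values in those comparisons are therefore descriptions: where a count of members past a threshold is printed for them, it stands beside the share of all genes, and nothing is read from it. Ribosomal proteins whose symbols the rule does not match, such as Rps3a1, Fau and Rpl36al, are treated as a separate list.

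The cells came from MC38 tumours, a mouse colorectal cancer line, grown in mice heterozygous for Kaede, a fluorescent protein that turns from green to red when lit with violet light. On day 14 the tumour-draining lymph node (TdLN) was lit at 405 nm, so that a red T cell found in the tumour later had been in that node, while a green one had not been marked there. All groups carried the Kaede allele and were photoconverted, and live CD90.2+ T cells were sorted by colour after bead enrichment for CD4+ and CD8+ cells. There were 6 conditions: NT (a label that names neither agent) and RT (a single 12 Gy dose to the tumour on day 14), each harvested at 24 h (day 1) and 72 h (day 3), and FTY720 and RT with FTY720, harvested at day 3 only. FTY720, given at 10 µg on day 15, is a drug that acts on sphingosine-1-phosphate receptors and holds lymphocytes in lymph nodes. Each condition had 2 replicates, each a pool of 4 tumours from as many mice, which gives 12 tumour pools and, with 2 colours, 24 hashed samples. The age of the mice is not given in the sources used here.

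The 24 samples were spread over 4 droplet wells. In each replicate 1 well held the day 1 samples together with NT of day 3, and the other held the remaining conditions of day 3. RT and NT at day 3 were therefore never in the same well, so radiation and well cannot be told apart in that contrast. RT and NT at day 1, and RT with FTY720 and FTY720 alone, were each compared within a well. In the replicate 2 wells the hashtag names of the deposited matrices give the opposite colour to the tag numbers of the labels for 12 of the 24 samples. The names in the matrices were used, and values with the label colours are given for the main results that rest on colour. Of 2816 barcodes, 2740 were kept, and no barcode was shared between wells. A hashed sample held 17 to 322 cells and 337319 to 7891316 unique molecular identifiers (UMIs, each standing for 1 captured transcript). Clusters gave 1307 CD8-like, 154 naive CD8-like, 409 CD4 conventional-like, 54 naive CD4-like and 594 Treg-like cells. A further CD8 cluster of 217 cells, led by the receptor genes Klra7 and Klra1, held 6 of the 8 naive markers and is kept apart. In CD8-like cells 4 of 6 B cell markers had UMIs, at a summed 9.13 to 70.8 CPM (counts scaled to 1000000 gene UMIs) over pools, with Ms4a1 among those at 0. Of 3 NK markers 2 had UMIs, at a summed 20 to 78.9 CPM, with Ncr1 at 0. Other classes held more: in Klra7-led cells all 3 NK markers had UMIs, at a summed 155 to 458 CPM. In Treg-like cells all 6 B cell markers (116 to 479 CPM) and all 9 myeloid markers (163 to 949 CPM) had UMIs. What these levels stem from was not tested.

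Ribosomal proteins assemble with ribosomal RNA into a small subunit, which reads the mRNA, and a large subunit, which forms the peptide bond. Their mRNAs are among the most abundant of any cell, and most begin with a C followed by a run of pyrimidines, the TOP element, through which mTOR and the protein Larp1 control their translation. T cells build ribosomes strongly when they are activated, under the control of Myc and mTOR. Some members have roles of their own: the stalk proteins Rplp0, Rplp1 and Rplp2, which recruit elongation factors to the large subunit; close paralogues such as Rps27l (a p53 target) and Rpl22l1; and proteins whose loss causes Diamond-Blackfan anaemia, among them Rps19 and Rps26.

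The start regions of members that the results turn on are shown first, because the TOP element lies at the first transcribed bases. Each line is a window of 30 bases that spans the start annotated by RefSeq on GRCm38.p6, 5′ to 3′ on the gene's strand. The capitals mark the longest run of 5 or more C or T that comes within 5 bases of that start. The authors' counts were made on another build, and these windows serve only to show sequence.
Rpl28 (chr7:4792950-4792979, plus strand): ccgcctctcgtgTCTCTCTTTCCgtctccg
Rps26 (chr10:128626492-128626521, minus strand): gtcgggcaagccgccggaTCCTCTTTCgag
Rps2 (chr17:24720048-24720077, plus strand): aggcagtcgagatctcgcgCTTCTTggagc
Rps27 (chr3:90213634-90213663, minus strand): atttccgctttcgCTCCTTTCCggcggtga
Rpl22l1 (chr3:28805493-28805522, plus strand): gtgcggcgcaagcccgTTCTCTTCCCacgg
Rps27l (chr9:66946071-66946100, plus strand): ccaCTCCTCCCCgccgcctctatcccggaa
Rps19 (chr7:24884577-24884606, plus strand): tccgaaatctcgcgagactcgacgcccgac
Rplp0 (chr5:115559452-115559481, plus strand): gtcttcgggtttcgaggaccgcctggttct
Rps2, Rps26 and Rpl28 fell after radiation in green CD8-like cells, Rps27 and Rps19 differed with colour, and Rps27l ran against the other members in naive cells. The windows of Rps19 (the first of its annotated starts) and Rplp0 hold no such run, which says only that these letters are not beside the annotated start. Rps27l is also shown at the first of its annotated starts, and another of them holds no such run.

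RefSeq held 74 start regions for 62 of the 82 members. A run of 5 or more pyrimidines lay beside the start in 50% of them, and in 32.9% of all 32851 start regions of the same length. Among regions with a run, its median length was 9 bases in members and 6 in all genes. The letters CTTTCC, searched on both strands in the 300 bases around the start, were present in 50% of the member regions and in 26.6% of all. CTTTTC was present in 24.3% and 21.8%, and TATAAA in 9.46% and 13.6%. These shares describe the windows and were not tested.

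In the kept cells the members took 18.12% of all gene UMIs. A UMI of 81 members was found, and 79 passed the filters of the comparisons below. Rpl10l was at 0, and Rpl3l and Rpl39l, paralogues known for expression in other tissues, had 7 and 57 UMIs over all kept cells. The genes for ribosomal proteins have many processed pseudogenes, and how reads shared with them were counted is not given in the sources used here, so the level of any single member is uncertain to that extent. Levels are given in UMIs per 1000000 gene UMIs (CPM) of a sum, where a sum adds all cells of 1 class from 1 sample or tumour pool.

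The member share of UMIs differed most between the naive classes together with the Klra7-led cluster, and the other classes. Over tumour pools it was 26.2% ± 3.08 (SD, n = 6) in naive CD8-like cells and 26.1% ± 1.82 (n = 9) in the Klra7-led cluster. It was 24.2% ± 2.94 (n = 5) in naive CD4-like cells. These 3 classes did not differ beyond their spread. CD8-like cells stood at 16.9% ± 2.59 (n = 12), CD4 conventional-like cells at 14.7% ± 2.1 (n = 11) and Treg-like cells at 12.2% ± 2 (n = 12), and their ranges over pools overlap. Split by colour, the lowest sum was 20.23% in naive CD8-like, 20.84% in naive CD4-like and 23.70% in Klra7-led cells, and the highest was 21.35% in CD8-like, 17.53% in CD4 conventional-like and 14.07% in Treg-like cells. The lowest naive CD8-like and naive CD4-like sums thus overlapped with the highest CD8-like ones, and the Klra7-led sums did not. A share is relative to all UMIs of the same cells, so fewer ribosomal transcripts and more of other transcripts cannot be told apart.

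**Figure D1:**
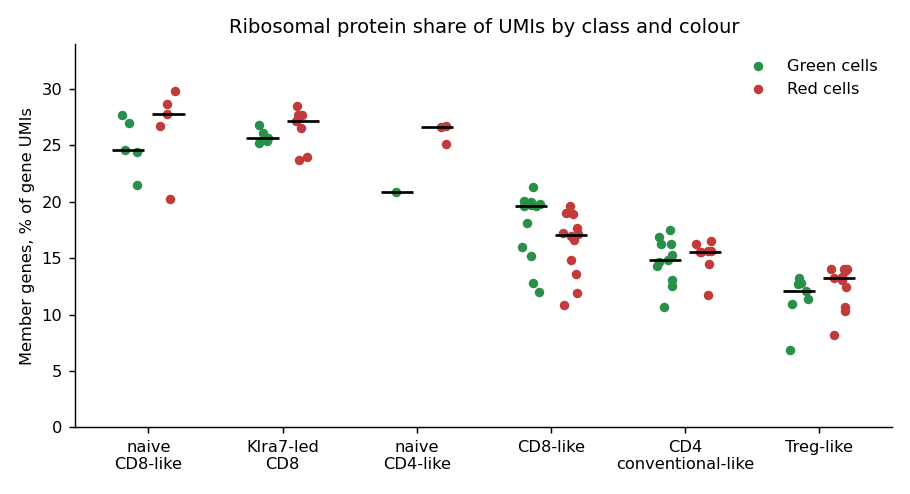
Share of gene UMIs that come from the 82 member genes (y axis, percent), for each class of T cells and colour; a point is the sum of 1 class, colour and tumour pool with at least 5 cells, and the bar is the median. The naive CD8-like, naive CD4-like and Klra7-led classes have means of 24.2% to 26.2% over pools. They sit above CD8-like (16.9%), CD4 conventional-like (14.7%) and Treg-like (12.2%) cells.

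Naive CD8-like cells were set beside the CD8-like cells of the same pool in the 6 pools with at least 5 naive cells (6 to 40). The member share was higher in the naive cells of 6 of 6 pools, by 7.62 percentage points ± 2.9 (SD). Of the 79 members, 56 were higher in the naive cells of every pool and 1, Rps27l, was lower in every pool. Over all 8789 genes measured, 12.9% were higher and 24.3% lower in every pool. The median log2 fold over pools (with 1 CPM added) had a median of 0.49 over members and -0.14 over all genes. The classes were made from the transcriptomes of these cells, so the contrast is not a test, although the members were left out of the genes that form the clusters.

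A stalk gene and the gene for the protein beneath it had the largest folds. Rplp1 ranged from 4874 to 8373 CPM in naive CD8-like cells (median 7985) and from 3591 to 3978 (median 3710) in CD8-like cells, a median log2 fold of 1.10, with no overlap. Rpl12, which sits at the base of the stalk, ranged from 3209 to 4960 CPM (median 4480) against 1959 to 2417 (median 2133), a fold of 1.08. The stalk as a group did not lead: Rplp2 had a median log2 fold of 0.68 and Rplp0 of 0.48, beside the member median of 0.49. Rps27, Rps24 and Rps16 of the small subunit completed the 5 largest folds, at 0.99, 0.91 and 0.88. Rps19 had a fold of 0.87 and was higher in 5 of 6 pools.

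Rps27l, the p53-responsive paralogue of Rps27, went the other way. It was at 42.34 to 101.7 CPM (median 58.06) in naive CD8-like cells and 146 to 233.7 (median 170.8) in CD8-like cells, a median log2 fold of -1.50, so the paralogue pair lay on opposite sides of 0 in all 6 pools. The other pair did not split in this way, with 0.44 for Rpl22 and 0.59 for Rpl22l1, both higher in 6 of 6 pools. The remaining lowest members were Rpl7l1 at -0.27, which rests on 18.5 to 72.62 CPM in naive cells, Rpl24 at 0.02, Rpl27 at 0.03 and Rpl7a at 0.08. Rpl24, Rpl27 and Rpl7a belong to the large subunit and were thus nearly level while most of it was higher.

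The CD4 lineage gave the same picture in 5 pools (6 to 14 naive cells). Naive CD4-like cells had a member share 9.16 points ± 2.91 higher than CD4 conventional-like cells, in 5 of 5 pools. Of 79 members, 66 were higher in every pool and 0 lower, beside 8.37% and 20.7% of 8992 genes. The median fold was 0.73 over members and -0.20 over all genes. Rpl12 (1.24), Rps29 (1.21), Rplp1 (1.20), Rps20 (1.13) and Rps28 (1.12) had the largest median log2 folds. The lowest were Rps27l (-0.90, lower in 4 of 5 pools), Rpl24 (-0.15), Rpl27 (0.07), Rpl29 (0.13) and Rpl7l1 (0.13). Rps27 was at 0.80, Rpl22 at 0.60, Rpl22l1 at 0.92, Rplp0 at 0.79, Rplp2 at 0.76 and Rps19 at 1.06. Rps27l and Rpl24 were thus at or near the bottom in both lineages, as the plot of the folds shows.

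**Figure D2:**
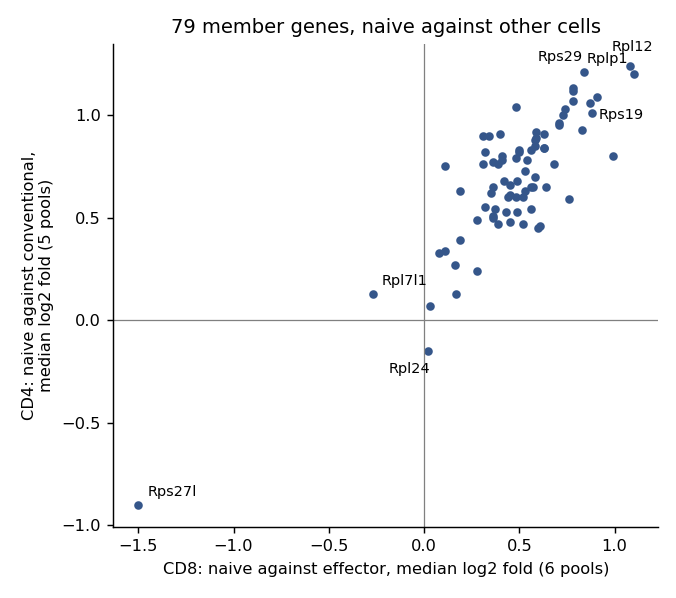
Median log2 fold over pools (1 CPM added) of each of 79 members, naive against effector CD8-like cells (x axis, 6 pools) and naive against conventional CD4-like cells (y axis, 5 pools); a point is 1 gene. Most members lie above 0 on both axes, and Rps27l lies below 0 on both, at -1.50 and -0.90.

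The Klra7-led cluster resembled the naive cells in this respect. In 9 pools, 74 of 79 members were higher than in CD8-like cells in every pool and 0 lower, beside 5.79% and 13.1% of 8688 genes, with a median fold of 0.51. Rps27l was again lowest, at -0.41 and lower in 8 of 9 pools. Set against the Klra7-led cells directly in 6 pools, naive CD8-like cells had 0 members higher and 10 lower in every pool, beside 11.2% and 13.7% of 8503 genes. The largest of these differences was Rps27l, with a median log2 fold of -1.06.

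The colours were compared within tumour pools, since red and green cells of a pool came from the same tumours. Among CD8-like cells the member share was lower in red than in green cells in 10 of 12 pools, at 16.2% ± 2.83 against 17.9% ± 3.1 (SD, n = 12). By the label colours it was lower in 6 of 12, at 16.9% ± 3.08 against 17.2% ± 3.09. Of 79 members, 2 passed the threshold of edgeR's quasi-likelihood fit with the pool as a block, both lower in red cells, beside 3.15% of 8820 genes. Because the rule named the colours, nothing is read from the count.

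Rps19 was lower in the red cells of 12 of 12 pools. It ranged from 817.9 to 2703 CPM in red CD8-like cells (median 1735) and from 1485 to 3961 in green ones (median 2232), so the ranges overlap while the pairs do not cross. Its log2 fold was -0.49 (SE 0.13). Rps27 ranged from 1468 to 3201 CPM in red cells (median 2108) and 1820 to 3777 in green ones (median 2876), with a log2 fold of -0.30 (SE 0.09), and was lower in red cells in 11 of 12 pools. The remaining named members lay near 0, with Rplp0 at 0.13, Rplp1 at -0.10, Rplp2 at -0.06, Rps27l at -0.14, Rpl22 at -0.04 and Rpl22l1 at -0.05. With the label colours, the Rps19 fold was 0.02 and no member was called. The count also rested on single pools: it was 0 when either NT pool of day 1, the second RT pool of day 1 or the second pool of RT with FTY720 was left out, 1 without FTY720 replicate 2, RT day 1 replicate 1 or RT with FTY720 replicate 1, and 5 without RT day 3 replicate 1.

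Genes for building ribosomes lay on the other side of 0 from Rps19 and Rps27 in these cells. Of 46 ribosome biogenesis genes, 8 were called higher in red CD8-like cells in edgeR (beside 3.91% of all genes) and 0 lower, with a median log2 fold of 0.43 beside -0.01 over all genes. The largest were Nop16 (0.90, SE 0.16), Heatr1 (0.65, SE 0.15), Nhp2 (0.65, SE 0.12) and Mrto4 (0.60, SE 0.16), nucleolar proteins of pre-ribosome assembly. Of the 18 translation factors and other TOP mRNAs 0 were called, with a median of 0.00. This rests on the matrix colours: by the label colours 0 of the 46 were called in edgeR (3 at an unadjusted p under 0.05), with a median of -0.23.

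Treg-like cells had the opposite colour difference in share. It was higher in red than in green cells in 7 of 7 pools, at 12.7% ± 2.07 against 11.5% ± 2.18 (SD, n = 7). By the label colours it was higher in 3 of 7, at 12.1% ± 1.91 against 12% ± 2.52. Of 79 members, 5 passed the threshold as higher in red cells and 0 as lower, beside 0.484% of 8686 genes that passed as higher, and nothing is read from this count either, since the rule named the colours. Rps2, at the small subunit's mRNA entry, ranged from 967.5 to 2016 CPM in red cells (median 1719) and 381.2 to 1411 in green ones (median 1152), a log2 fold of 0.69 (SE 0.13). Rps26 (0.52, SE 0.11) and Rplp0 (0.47, SE 0.10) were also among them, and each was higher in 7 of 7 pools. Rps19 was not among them (0.11, SE 0.15), nor were Rplp1 (0.27), Rplp2 (0.17), Rps27 (-0.06), Rps27l (0.00), Rpl22 (0.16) or Rpl22l1 (0.36). Of 43 ribosome biogenesis genes 1 was called higher, Nob1 at 1.34 (SE 0.29), with a median of 0.63, and by the label colours 0 were called in edgeR (8 at an unadjusted p under 0.05), with a median of -0.35. With the label colours no member was called, and Rplp0 stood at -0.09. The count was 0 when either NT pool of day 1 or the second RT pool of day 1 was left out, 1 without FTY720 replicate 2 and 2 without NT day 3 replicate 2.

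Whether the colour difference itself differed between Treg-like and CD8-like cells was fitted as an interaction in the 7 pools with both. The members' median difference was 0.26 with the matrix colours and -0.03 with the label colours, and no member passed the threshold in edgeR, beside 0.325% of 10755 genes. CD4 conventional-like cells had a share of 15.2% ± 1.51 (SD) when red and 15.5% ± 1.6 when green over 8 pools, with red higher in 4 and, by the label colours, in 3, and no member passed the threshold, beside 0.150% of 7324 genes. In naive CD8-like cells red was higher in 4 of 4 pools, at 28.2% ± 1.32 against 24.5% ± 2.52, and with the label colours in 1 of 4. No member passed the threshold there, beside 0.0568% of 3521 genes.

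The effect of radiation was first fitted with 1 effect shared by day 1, day 3 and day 3 under FTY720. In green CD8-like cells 5 of 79 members fell and none rose, beside 2.63% of 7415 genes that fell and 4.18% that rose, with edgeR's quasi-likelihood test and Benjamini-Hochberg adjustment over all genes. Among them, Rps2 fell by 0.52 on the log2 scale (SE 0.15, adjusted p = 0.0495). Rps26 fell by 0.49 (SE 0.13, adjusted p = 0.0356) and Rpl28, of the large subunit, by 0.46 (SE 0.11, adjusted p = 0.0298). In red CD8-like cells no member was called in edgeR, beside 0.734% of 8991 genes called. There 56 members had an unadjusted p under 0.05, beside 8.82% of all genes. None was called in green cells with the label colours, without the day 3 stratum, or when the first FTY720 pool, either NT or either RT pool of day 3, or the second pool of RT with FTY720 was left out. It was 1 without FTY720 replicate 2 and 13 without RT day 1 replicate 1. The difference of the radiation effect between the colours gave no called member with either set of colours, beside 0.0113% of 8820 genes (matrix colours).

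The days were then taken apart, a choice made after the shares by condition had been seen. At day 1 the member share of green CD8-like cells was 21.35% and 19.62% in the 2 irradiated pools and 20.11% and 19.82% in the 2 NT pools. In red cells it was 17.72% and 16.98% against 16.65% and 17.12%. Irradiated and unirradiated pools thus overlapped at day 1 in both colours. At day 3 the 4 irradiated green sums were at 12.77%, 12.02%, 15.99% and 15.22%, and the 4 unirradiated ones at 20.02%, 19.60%, 19.69% and 18.12%. The 4 irradiated red sums were at 14.83%, 13.60%, 10.82% and 11.91%, against 18.92%, 19.03%, 19.59% and 17.28%. At day 3 every irradiated sum of either colour lay below every unirradiated sum of either colour, as the plot by condition shows, so this order is the same with the label colours.

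**Figure D3:**
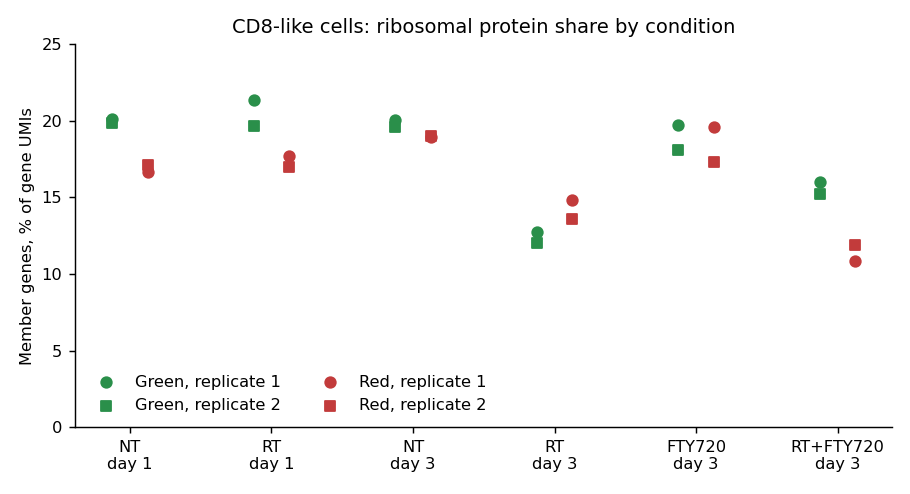
Share of gene UMIs from the member genes in CD8-like cells (y axis, percent) by condition; a point is the sum of 1 colour and replicate, with green and red marks for the sorted colour and the marker shape for the replicate. The irradiated samples at day 3, with and without FTY720, lie between 10.82% and 15.99%, below the unirradiated ones at 17.28% to 20.02%.

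Fitted with a mean per condition, no member was called at day 1 in either colour (0.0127% of 7853 genes called in green and 0 of 9386 in red cells). In green cells 4 members had an unadjusted p under 0.05, beside 5.76% of all genes. At day 3, averaged over RT against NT and RT with FTY720 against FTY720, 52 of 79 members fell in green CD8-like cells and none rose, beside 4.25% of 7853 genes that fell and 4.47% that rose. In red cells 51 passed as lower, which is 50 without Rps19, whose change after radiation the rule names, and none rose, beside 1.30% of 9386 genes that fell and 1.82% that rose. The median log2 fold of the members was -0.48 in green and -0.51 in red cells, and 44 members fell in both, which is 84.6% of the green list and, with Rps19 left out, 88% of the red list. The same overlap over all genes is not given here, and both colours come from the same tumour pools and wells. Nothing particular to the members is therefore read from it. RT against NT alone gave 54 members that fell in green cells (beside 1.91% of genes called as lower) and 0 in red cells (beside 0.245%). In red cells 45 members had an unadjusted p under 0.05, beside 14.0% of all genes. RT with FTY720 against FTY720, within a well, gave 0 in green cells, beside 0.0509% of genes called as lower. It gave 1 in red cells, Rpsa (-1.17, SE 0.19, adjusted p = 0.0427, edgeR), beside 0.0426%. An unadjusted p under 0.05 was found for 33 members in green cells, beside 14.5% of all genes, and for 73 in red cells, beside 13.9%. The day 3 effect minus the day 1 effect gave no called member in either colour, and 0 genes were called. In each colour 59 members had an unadjusted p under 0.05, beside 7.63% of all genes in green and 7.06% in red cells.

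Genes of both subunits fell in green cells. Rps2 stood at 1323, 1201, 1890 and 1330 CPM in the irradiated green sums of day 3 and at 2527, 2562, 2521 and 2278 in the unirradiated ones, with no overlap. It fell by 0.76 on the log2 scale (SE 0.13, adjusted p = 0.00647, edgeR). Rpsa, which is also known as the laminin receptor, fell by 0.70, Rps6, the target of S6 kinase, by 0.69 and Rps7 by 0.68. In the large subunit Rpl36a fell by 0.75, Rpl5, which with Rpl11 binds the p53 regulator Mdm2, by 0.72, Rpl8 by 0.71 and the stalk base Rplp0 by 0.68. The other stalk genes fell by 0.51 (Rplp1) and 0.43 (Rplp2).

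In red cells Rpsa led. It stood at 3063, 2614, 1524 and 1935 CPM in the irradiated red sums of day 3 and at 4103, 4298, 4396 and 3553 in the unirradiated ones, and fell by 0.84 (SE 0.13, adjusted p = 0.00674, edgeR). Among the other large folds were those of Rpl36a (-0.81), Rps12 (-0.76), Rpl13 (-0.70), Rpl30 (-0.70), Rpl8 (-0.69), Rps27a (-0.68), Rps2 (-0.68) and Rpl12 (-0.67). Rplp0 fell by 0.63, Rplp1 by 0.56 and Rplp2 by 0.52. Rps27a encodes a ribosomal protein fused to ubiquitin. Rps2, Rpsa, Rpl8 and Rpl36a were among the 10 largest in both colours.

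A few members lay near 0 while the others fell. In green cells the day 3 log2 fold was 0.13 for Rps27 (SE 0.20), 0.03 for Rps27l (SE 0.18), 0.08 for Rpl24 (SE 0.09), 0.05 for Rpl7l1 (SE 0.23) and -0.10 for Rps29 (SE 0.21). The mean for Rps19 was 0.00 (SE 0.09), made of -0.40 for RT against NT and 0.40 for RT with FTY720 against FTY720 (SE 0.13 each). None of the other 5 passed the test, and the SEs leave room for a fall of Rps27, Rps27l, Rps29 or Rpl7l1. Rpl22 fell by 0.49 in green cells (SE 0.14, adjusted p = 0.0452, edgeR), and its paralogue Rpl22l1 stood at -0.39 (SE 0.14, adjusted p = 0.101). In red cells Rps27 stood at -0.32 (SE 0.18), Rps27l at -0.12 (SE 0.17), and Rpl22 and Rpl22l1 both at -0.39. Counted without a fit, all 4 irradiated sums lay below all 4 unirradiated sums for 57 of 79 members in green cells (8.33% of 8320 genes) and for 60 in red cells (4.84% of 8166 genes), and above them for none (5.46% and 3.28% of genes).

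**Figure D4:**
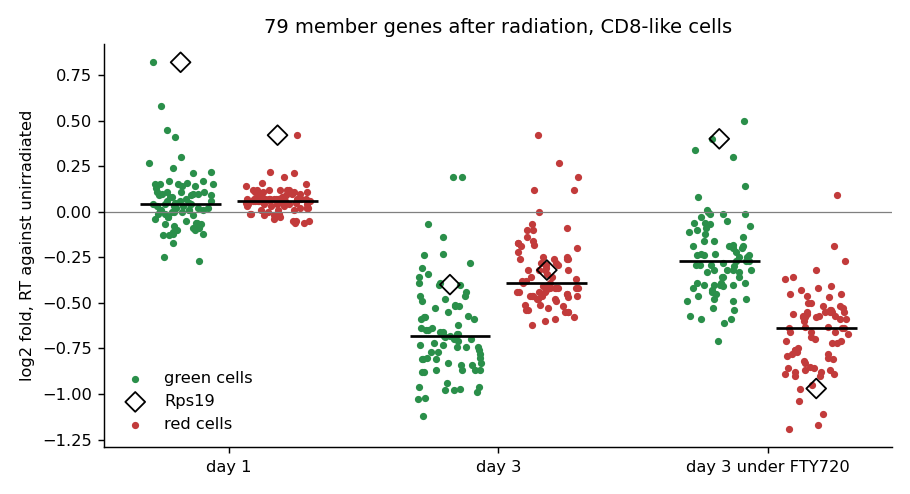
Log2 fold of each of 79 members after radiation (y axis, RT against unirradiated, edgeR) in green and red CD8-like cells at day 1, day 3 and day 3 under FTY720 (x axis); a point is 1 gene, the bar is the median and the diamond marks Rps19. Members lie around 0 at day 1 and mostly below 0 at day 3, while Rps19 lies at 0.82 in green cells at day 1.

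The cells compared at day 3 also differed in other ways. The 2 clusters led by the interferon-stimulated genes Trim30c and Ifi204 held 46.7% to 81.8% of the CD8-like cells of the irradiated day 3 samples and 0% to 22.2% of those of every other sample. The member share was 14% in these clusters and 18.5% in the other CD8-like clusters. Without those clusters no member was called in either colour in edgeR, from fewer cells, and the median fold was -0.35 in green and -0.46 in red cells. In the other CD8-like clusters the share was also lower in irradiated day 3 cells: 15.1% against 18.8% in the cluster led by Gzmk (14 irradiated cells), 16.2% against 20% in the one led by Gzmf (11 cells) and 15.2% against 19.9% in the one led by Nrgn (13 cells). The irradiated day 3 sums held 11 to 24 cells each. Their summed myeloid markers were at 41 to 126 CPM over both colours (28.5 to 162 in the unirradiated day 3 pools), with all 9 markers detected. Summed B cell markers were at 9.13 to 24.5 CPM in the irradiated and 30.6 to 70.8 in the unirradiated day 3 pools, and NK markers at 33.1 to 41.8 against 48.8 to 78.9, neither with overlap. Mitochondrial UMIs made up 0.892% to 1.71% of the 8 irradiated sums and 1.65% to 2.06% of the 8 unirradiated ones. The part of the interferon-led clusters, of these markers, of the mitochondrial share and of the well in the result was not tested.

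With the label colours 7 members were called in green and 1 in red cells. Leaving out single pools gave 30 to 56 in green cells (30 without NT day 3 replicate 1, 33 without RT day 3 replicate 2) and 4 to 59 in red cells (4 without NT day 3 replicate 2, 7 without FTY720 replicate 1 or RT with FTY720 replicate 1, 11 without NT day 3 replicate 1, 23 without FTY720 replicate 2, 24 without RT day 3 replicate 2, and 32 and 33 without NT day 1 replicate 1 and 2).

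Other lists of the ribosome pathway were looked at in the same contrast, in which 4.25% of all genes fell in green cells. Of 44 ribosome biogenesis genes measured, 20 fell and 1, Nop53, rose (0.45), with a median log2 fold of -0.91 beside -0.02 over all genes. Wdr12 (-4.45, SE 0.89), Rrp9 (-2.73, SE 0.53), Rrp15 (-2.36, SE 0.47) and Rrs1 (-2.13, SE 0.41) had the largest folds, and each acts in the assembly of pre-ribosomes. Of 18 translation factors and TOP mRNAs 8 fell, led by Eef1b2 (-0.85), Npm1 (-0.83), Eif4b (-0.73) and Eef1g (-0.66). Myc, the transcription factor that drives ribosome genes, fell by 1.36 (SE 0.27, adjusted p = 0.0119, edgeR) and was the only 1 of 12 regulators called. Rps3a1, a ribosomal protein the rule does not match, fell by 0.80 (SE 0.10). Of 77 mitochondrial ribosomal proteins 2 fell, Mrpl23 (-0.87) and Mrpl12 (-0.84), a smaller share than that of all genes. Of 15 p53 targets 4 rose: Cdkn1a (3.54), Ccng1 (1.59), Polk (1.35) and Trp53inp1 (1.31). By the label colours 1 of 46 biogenesis genes, 1 of 18 translation factors and TOP mRNAs and 0 of 16 p53 targets were called in edgeR, with medians of -0.66, -0.34 and 0.55.

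In red cells, where 1.30% of all genes fell, fewer of these were called. Of 46 ribosome biogenesis genes 2 fell, Gar1 (-1.32) and Nip7 (-1.06), with a median of -0.44. Of 18 translation factors and TOP mRNAs 4 fell: Eef1b2 (-0.65), Eef1a1 (-0.55), Rack1 (-0.53) and Pabpc1 (-0.53). Rps3a1 fell by 0.73. Of 78 mitochondrial ribosomal proteins 1 fell, Mrps27 (-1.84), which is about the share of all genes. By the label colours 0 of the biogenesis genes and 0 of the translation factors and TOP mRNAs were called in edgeR (22 and 14 at an unadjusted p under 0.05), with medians of -0.77 and -0.48. None of 14 regulators or 17 p53 targets was called.

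The other classes gave no called member after radiation. In Treg-like cells the shared radiation effect had 0 called members in edgeR, beside 0.282% of 7794 genes, and in CD4 conventional-like cells 0, beside 0 of 7743 genes. An unadjusted p under 0.05 was found for 11 members in Treg-like cells, beside 8.90% of all genes, and for 12 in CD4 conventional-like cells, beside 9.71%. The day 3 effect had medians of -0.31 in Treg-like (0.955% of 8268 genes called) and -0.26 in CD4 conventional-like cells (2.54% of 8635 genes). There 30 and 12 members had an unadjusted p under 0.05, beside 13.2% and 15.8% of all genes. Most members were below 0, 71 of 79 and 73 of 79, and these effects were not tested against that of CD8-like cells. In naive CD8-like cells, where irradiated sums were large enough at day 1 only, 0 were called in edgeR, beside 0.0310% of 6455 genes. Of the members 1 had an unadjusted p under 0.05, beside 3.63% of all genes, and all 79 were below 0 with a median of -0.33. Without RT day 1 replicate 2, 1 irradiated sum of 6 red cells is left, so nothing is read from the count of that fit.

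Rps19 is described at day 1 because the rule names it after radiation, so its levels and folds here are not a test. In green CD8-like cells it was at 2225 and 2300 CPM in the NT pools and 3898 and 3961 in the RT pools of the same wells. In red CD8-like cells it was at 1717 and 1784 in NT and at 2703 and 1931 in RT. The irradiated pools lay above the NT pools in both colours, with a log2 fold of 0.82 in green (SE 0.13) and 0.42 in red cells (SE 0.21). With the label colours the RT pools were at 3898 and 1931 in green cells (NT 2225 and 1784) and at 2703 and 3961 in red cells (NT 1717 and 2300), so each RT pool stayed above the NT pool of its well and colour, while the green groups overlapped. In green CD4 conventional-like cells it was at 2131 and 1755 in NT and 3865 and 3124 in RT, and in red ones at 1805 and 1613 against 2767 and 2178. In green Treg-like cells of replicate 2 it was at 1448 in NT and 2614 in RT, and in red Treg-like cells at 1729 and 1653 against 1662 and 1745. By the matrix colours the irradiated level was thus the higher one in green cells of 3 classes. It was also the higher one in red CD8-like and CD4 conventional-like cells, while red Treg-like cells overlapped. With the label colours, green Treg-like cells of replicate 2 would be at 1653 in NT and 1745 in RT, and the 1448 and 2614 would belong to red cells. CD4 conventional-like cells would stay higher in RT in both colours. The green ones would be at 3865 and 2178 against 2131 and 1613, and the red ones at 2767 and 3124 against 1805 and 1755. In naive CD8-like cells the fold was -0.27 (SE 0.23).

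By day 3 the level of Rps19 was no longer raised without FTY720. In green CD8-like cells it was at 1784 and 1485 CPM in RT and 2239 and 2153 in NT. With FTY720 it was at 2359 and 2802 in RT and 2097 and 1890 without RT. In red CD8-like cells of RT with FTY720 it was at 817.9 and 1024, against 2051 and 1647 with FTY720 alone. With the label colours, RT with FTY720 was at 2359 and 1024 in green cells (FTY720 alone 2097 and 1647) and at 817.9 and 2802 in red cells (2051 and 1890), so that neither colour then lay on 1 side of its controls in both replicates.

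**Figure D5:**
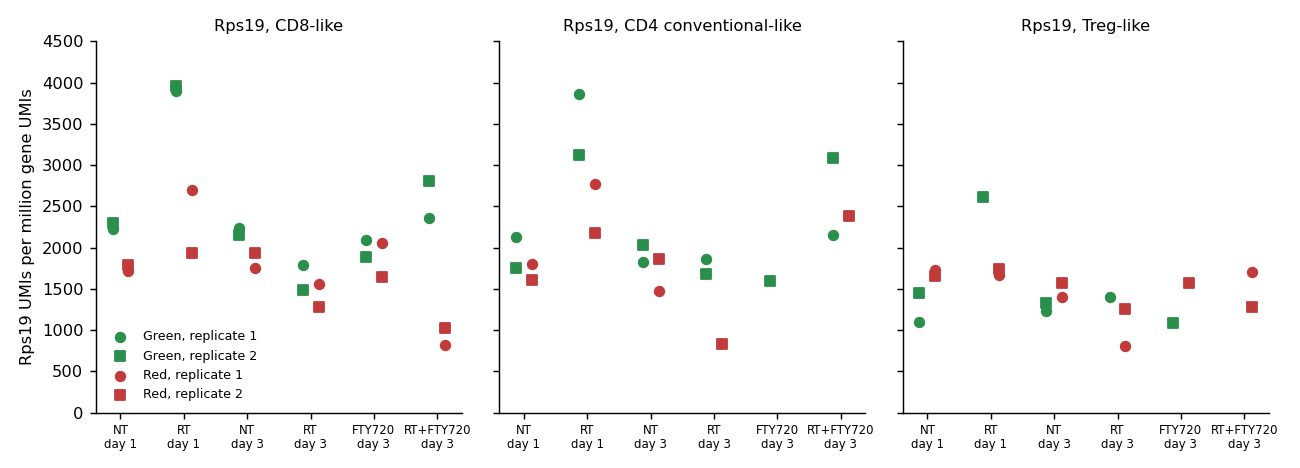
Level of Rps19 (y axis, CPM) by condition in CD8-like, CD4 conventional-like and Treg-like cells; a point is the sum of 1 colour and replicate with at least 5 cells. Green CD8-like cells lie at 3898 and 3961 in RT day 1, above 2225 and 2300 in NT day 1.

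Within the day 1 CD8-like cells, Rps19 was highest in a cluster led by Phlda3, a p53 target. Its 45 RT cells had 6449 CPM of Rps19, while the other clusters of RT cells ranged from 1710 to 3635 and those of NT cells from 1672 to 2286. The cluster held 35 cells of green replicate 2, 10 of red replicate 1 and none of green replicate 1 or red replicate 2, nor of any NT sample. By the label colours all 45 of its cells at day 1 would be red. Without it Rps19 stood at 3016 in green replicate 2 and 2350 in red replicate 1, still above NT. Green replicate 1, with none of these cells, stood at 3898. The summed level of 21 p53 targets was 2148 and 2056 CPM in green and 1477 and 1003 in red irradiated CD8-like cells (2148 and 1003 against 1477 and 2056 by the label colours), and 788.3 to 987.4 in the 4 NT sums. Among the irradiated sums, by the matrix colours, the 2 green ones had both the higher Rps19 and the higher p53 target level. The order did not hold across irradiated and NT sums. The green NT sums, at 2225 and 2300 CPM of Rps19, lay above red RT replicate 2 at 1931, with lower p53 target levels (788.3 and 893.5 against 1003). The part of the p53 response in the level of Rps19 was not tested. Rps27l, itself a p53 target, was at 250.1 and 229.3 CPM in green irradiated cells against 148.3 and 174.8 in NT, a log2 fold of 0.58 (SE 0.22, adjusted p = 0.734, edgeR).

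Time, FTY720 and clone size moved no member past the test. Between day 3 and day 1 in unirradiated CD8-like cells 0 members were called in edgeR, beside 0 of 10310 genes. There 1 member had an unadjusted p under 0.05, beside 5.65% of all genes. FTY720 at day 3, averaged over RT and no RT, gave 0 called members, beside 0.00970% of 10310 genes. For FTY720, 3 members had an unadjusted p under 0.05, beside 7.69% of all genes. NT of day 3 was in another well than the FTY720 samples, so FTY720 and well cannot be told apart in that part of the average. CD8-like cells whose T cell receptor beta sequence was shared by 2 or more cells of the pool were set against cells with a sequence found in 1 cell, in 11 pools. No member was called, beside 0.0978% of 10226 genes. In all, 32 members had an unadjusted p under 0.05, beside 8.10% of all genes. In that fit 77 of 79 members were below 0 with a median of -0.10, Rplp1 stood at -0.20 (SE 0.05, adjusted p = 0.188) and Rps19 at -0.19 (SE 0.06, adjusted p = 0.275), the latter lower in expanded clones in 11 of 11 pools.

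Within the member UMIs of CD8-like cells, a few genes varied much more than the rest, and the 4 that varied most followed the well. Over the 12 pools, the share of member UMIs taken by a gene had a median coefficient of variation of 7.01% over 79 members. Rps29 had 29.5%, Rps27 24.5%, Rpl38 23.4% and Rps28 23.2%. Rps29 took 0.685% to 0.707% of member UMIs in the pools of well 3 (NT day 1, RT day 1 and NT day 3, replicate 2), 0.963% to 1.04% in well 1, 1.38% to 1.58% in well 2 and 1.34% to 1.43% in well 4. The 4 genes had their lowest values in well 3, with no overlap with any other well. The next were Rpl7l1 (21.1%), Rps27l (18.5%) and Rps19 (16.8%), whose ranges overlap between wells. Rps21 (14.3%) again lay lowest in well 3 without overlap, at 0.968% to 1.04% against 1.21% or more in the other wells. So did members that varied less, among them Rpl37a (12.3%), Rpl41 (11.8%), Rpl39 (11.4%), Rpl6 (10.5%) and Rpl37 (9.23%). Rpsa (14.1%) took 1.57% to 2.07% of member UMIs in wells 2 and 4, which hold all irradiated day 3 pools, and 2.16% to 2.55% in wells 1 and 3. Levels of these genes are therefore compared only within a well or with the well in view, which bears on Rps27 and Rps29 in the RT against NT contrast at day 3.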

How the data were processed

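Sorted T cells of 24 hashed samples in 4 wells were analysed. For each barcode the authors deposited unnormalized UMI counts of genes and hashtags, and contig tables of T cell receptors with UMI counts. Cell Ranger 8.0.1 and mm39 are named in the submitters' processing notes. No genome was used.

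Barcodes under 500 genes or over 10% mitochondrial UMIs were dropped (76 in all); the rest were kept and given to a sample where the top hashtag had at least 20 UMIs and 3 times the next. The hashtag rule removed 0 cells. Doublets were not called, and 90 cells with 2 or more TCR beta chains stayed in. Clusters (scanpy 1.11.5, 2000 variable genes without the members, 30 components, 15 neighbours, Leiden 1.0) were named from marker lists, with 246 cells of 3 mixed clusters split by lineage UMIs and 5 left out. Median UMIs per cell were 22265 in CD8-like, 18876 in naive CD8-like, 15298 in CD4 conventional-like, 13449 in naive CD4-like, 19387 in Treg-like and 28046 in Klra7-led cells.

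Counts were summed per class, colour and pool (at least 5 cells) and tested with edgeR 4.0.16 (filterByExpr, TMM, quasi-likelihood), with Benjamini-Hochberg adjustment over all genes and a threshold of 0.05. CPM are per 1000000 gene UMIs without TMM factors; folds are from the fits. Naive contrasts used genes with a mean of at least 10 CPM and 1 CPM added. The colour and clone fits have the pool as a block, since both arms come from the same tumours. Each replicate number covers both a well with the day 1 samples and a well without them, per the labels. Deviations of conditions that share a well correlated at -0.08 to 0.28 (6 pairs) and of others at -0.02 to 0.13 (9 pairs). The replicate number was a block in an alternative fit, and no radiation fit held the well as a term. P-values measure the spread between tumour pools, and in the colour and clone fits the spread over pools of the differences within them. On simulated data, a log2 change of 1 was recovered in 86.5% of 200 changed genes for the colour fit of CD8-like cells, in 66.5% for radiation in green cells and in 32% and 34% at day 3 in green and red cells; a change of 0.5 was recovered in 23.5%, 1%, 0% and 0%.

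Members and gene lists were chosen with earlier results of these data known. Named members are all that passed in a contrast, or the 10 largest folds, plus Rps19, 2 paralogue pairs and the stalk genes, and the 5 highest and 5 lowest in naive cells; some items are not reported here. Other members are named where counts single them out, after their values were seen. The mean per condition after radiation, the fits without interferon-led clusters, the Klra7-led cells added to naive cells, the label colours for the other gene lists and the count without Rps19 were chosen after seeing the data. Alternatives were DESeq2 1.42.0, its size factors, library sizes without the members, other filters, cell minimums, label colours and leaving out each pool.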

Additional observations from a re-analysis of the deposited data

Results flagged for a closer look

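Of 66 groups of 4 to 10 values, 2 had a lowest value far from the others; chance alone flags about 1 in 20 such groups. The member share of naive CD8-like cells was 20.23% in RT day 1 replicate 1, which held 6 red cells, and the next of the 6 pools was at 26.14%. The level of Rps2 in unirradiated green CD8-like cells at day 3 was 2278 CPM in FTY720 replicate 2, and the next of the 4 sums was at 2521 CPM.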

How the results depend on the processing

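With the label colours, the log2 fold of Rps19 between red and green CD8-like cells was 0.02, and that of Rplp0 in Treg-like cells was -0.09; both reversed. Label colours gave 0 members called for the colours in CD8-like and in Treg-like cells, 0 after radiation in green cells, and 7 (green) and 1 (red) at day 3. DESeq2 called 7 for the colours in CD8-like, 16 in Treg-like and 1 in CD4 conventional-like cells, 23 and 3 after radiation in green and red CD8-like cells, and 2 for clones. No filter on low counts gave 15 (colours, Treg-like), 1 (colours, CD4 conventional-like), 30 and 11 (radiation, green and red), and 1 each for radiation in Treg-like and in CD4 conventional-like cells and for clones. Library sizes from genes that are not members gave 6 and 3 for the colours in CD8-like and Treg-like cells and 19 for radiation in green cells; at day 3 they put the median of all genes at -0.14 and of members at -0.60 (green) and -0.65 (red). With members allowed among the variable genes, the colours gave 0 in CD8-like cells and clones 1. At least 10 cells per sum gave 1 (colours, Treg-like) and 7 (day 3, red). Without mixed clusters, radiation gave 0 and day 3 gave 17 in green cells. Without the interferon-led clusters, radiation and both day 3 counts were 0. Without the day 3 stratum, radiation in green cells gave 0. The share of all genes called at each of these settings is not given here, so nothing is read about the members from a rise or fall of their count. The cause was not tested.

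Leaving out 1 pool gave 0 to 5 for the colours in CD8-like and in Treg-like cells, 0 to 13 for radiation in green and 0 to 43 in naive CD8-like cells, 30 to 56 (green) and 4 to 59 (red) at day 3, and 7.22 to 8.77 points for the naive share; the other 8 counts stayed at 0. The upper end for naive CD8-like cells comes from leaving out RT day 1 replicate 2. That fit has 1 irradiated sum, of 6 red cells, so nothing is read from its count. Without the replicate block (the pool pairing), the colours gave 0 in CD8-like and 0 in Treg-like cells. With the replicate number as a block, radiation gave 5 in green cells and day 3 gave 54 (green) and 38 (red), and it changed no other call. Of the named members' values, 584 kept their direction and side of the threshold and 179 kept only their direction. The colour fit of naive CD8-like cells could not be fitted at 10 cells per sum or with members allowed. The irradiated day 3 sums held 11 to 24 cells each, which limits their precision.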
